A study of Mus musculus with 9 samples.

Results

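The genes described here are 10 mouse genes that were selected on 1 measured value, the difference in DNA methylation at the border of a CpG island between homozygous Kmt2d-mutant and wild-type B cells. They are 10 of 20665 protein-coding autosomal genes, and the 10 borders chosen, 1 per gene, are 10 of 26197 island borders tested across the autosomes. In the homozygous library the border was more methylated than in wild type at Hrob, Atp5g2, Prkg1, Pcbp4 and Nacc2, and less methylated at Fbxo34, Pth1r, Eif5, Nle1 and Calhm6, all as levels pooled over the reads of the border. Compared within CpGs, the differences at Fbxo34 and Calhm6 were -3.62 and -3.26 points against -36.5 and -36.4 pooled. Because these differences chose the genes, they are given below as a description with no test. Tests are given for the other windows of the same genes. The windows that adjoin a chosen border share reads with it at the edge, so their tests are not independent of the choice. The other outer borders of these genes were candidates for the choice and had to differ less, so their tests are not independent of it either.

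The study sequenced bisulfite-converted DNA of mouse splenic B cells from 3 genotypes: wild type (WT), and heterozygous (HET) or homozygous (HOM) for an A-to-T point mutation of Kmt2d that changes the protein by Ile5482Asn. The mutated base is at position 98835228 of chromosome 15. The HET and HOM data, but not those of WT, are also named ENU, after a mutagen used to make point mutations. B cells were enriched by magnetic depletion of other spleen cells, with no treatment, and neither strain nor age is given in the sources used here. The labels list 2 B cell samples per genotype, while the table holds 1 set of counts per genotype. Whether a set is 1 of the 2 samples or pools both is not given, so each is treated as 1 library and no difference below has a replicate check.

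CpG islands are stretches of dense CpG dinucleotides, often at gene starts, that are usually kept free of methylation while the CpGs around them are methylated. The border is where one state passes into the other over a short distance, and a gain of methylation there narrows the unmethylated stretch while a loss widens it. KMT2D is a histone methyltransferase that places H3K4 monomethylation mainly at enhancers, and methylation of H3K4 is known to hinder DNA methyltransferase binding. The gene is recurrently mutated in B cell lymphomas.

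Methylation of a window is the share of its CpG reads that were methylated. An island was found from the CpG positions, its outer border is the 500 bp outside its edge, and its shore runs from there to 2000 bp. RefSeq promoters cover part of the chosen border at 3 of the 10 genes, and these stretches are printed from the GRCm38.p6 build on the strand of the gene, 5′ to 3′, with each CpG in capitals. They are shown because they hold the CpGs nearest the island, where methylation was low in all 3 libraries although the border as a whole was chosen for a difference.
Nacc2 (chr2:26123012-26123061, minus strand): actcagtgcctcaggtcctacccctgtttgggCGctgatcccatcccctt
Fbxo34 (chr14:47472311-47472465, plus strand): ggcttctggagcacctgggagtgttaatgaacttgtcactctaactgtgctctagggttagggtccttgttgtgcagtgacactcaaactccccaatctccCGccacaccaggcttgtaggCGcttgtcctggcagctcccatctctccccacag
Nle1 (chr11:82908510-82908645, minus strand): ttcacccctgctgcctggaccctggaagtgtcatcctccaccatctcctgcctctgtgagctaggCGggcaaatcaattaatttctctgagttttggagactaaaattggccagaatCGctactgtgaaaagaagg
The single CpG of the Nacc2 stretch was methylated in 0% of 14 WT reads, 11.8% of 17 HET reads and 0% of 11 HOM reads. The 2 CpGs of the Fbxo34 stretch were at 0% over 5 WT reads, 0% over 34 HET reads and 3.57% over 28 HOM reads. Those of the Nle1 stretch were at 2.94%, 0% and 0% over 34, 25 and 32 reads. Next to the island, therefore, all 3 genes had little methylation in every library, and the WT level of Fbxo34 there rests on 5 reads of 1 CpG.

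The libraries held 200824258 (WT), 282430649 (HET) and 215454437 (HOM) CpG reads over 21875444 CpGs, or 9.18, 12.9 and 9.85 reads per CpG. Far from islands 81.6% of the CpG reads of WT, 80.9% of those of HET and 78.2% of those of HOM were methylated, so that HOM fell by 3.44 points there relative to WT. B cell identity was checked at gene starts: 8 of 10 B cell markers were below 50% in every library, with Pax5 at 8.71%, 3.86% and 4.31%, while 5, 3 and 3 of 10 T cell markers were below 50%. The T cell list had medians of 50.2%, 60.04% and 54.9% against 34.9%, 19.8% and 33.5% for the B cell list. The part of cell composition in the differences below was not tested.

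Hrob, whose product loads the MCM8-MCM9 helicase during homologous recombination, had the largest gain of the 10 genes in the pooled level, though not within CpGs. Its border lies outside the gene, at 11:102245440-102245939 and 3418 bp from the nearer gene end, and was at 31.0% over 100 reads in WT, 55.3% over 132 in HET and 69.3% over 75 in HOM. HET stood between WT and HOM, and HOM was 38.3 points above WT with a 95% interval of 23.6 to 50.7. The intervals given for differences cover counting error only, and they are too narrow because CpGs on the same read are not independent.

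Atp5g2 encodes subunit c of the mitochondrial ATP synthase, the part that forms the rotating ring in the membrane. Its border, 15:102672454-102672953 and 1406 bp upstream of the gene start, was at 11.3% over 124 reads in WT, 32.2% over 171 in HET and 47.8% over 134 in HOM. It stepped up from WT through HET to HOM, which was 36.5 points above WT (25.8 to 46.0). It is the only chosen border on the chromosome that carries the mutation, 3837226 bp from it. None of the 114 CpGs of the chosen borders had a level of 10% or less in 1 library beside 70% or more in another, each over at least 5 reads, the pattern looked for as a sign of a base change at a CpG. Not every CpG had the reads to show it: at Nle1 only 2 of 12 had 5 reads in every library. The Hrob CpG 347 bp from the edge was at 0% of 2 WT reads, 80% of 5 HET reads and 100% of 6 HOM reads, and missed the read minimum in WT.

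Prkg1, the cGMP-dependent protein kinase, had its border inside the gene at 19:31763559-31764058, with levels of 27.0% over 230 reads in WT, 42.7% over 206 in HET and 61.0% over 172 in HOM. The HOM level was 34.1 points above WT (24.5 to 42.9) and HET lay between them. Pcbp4, an RNA-binding protein with KH domains that bind poly(C), had its border at 9:106452925-106453424, partly inside the gene. It was at 7.46% over 67 reads in WT, 43.1% over 109 in HET and 40.0% over 90 in HOM. Both mutant libraries were high there and HET was not between the others. Nacc2, a transcriptional repressor with a BTB domain, had its border at 2:26123012-26123511, 200 bp upstream of the gene start. It was at 7.37% over 95 reads in WT, 28.1% over 135 in HET and 36.4% over 66 in HOM. The HOM excess was 32.5 points at Pcbp4 (19.6 to 43.7) and 29.0 points at Nacc2 (16.3 to 41.6).

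**Figure D1:**
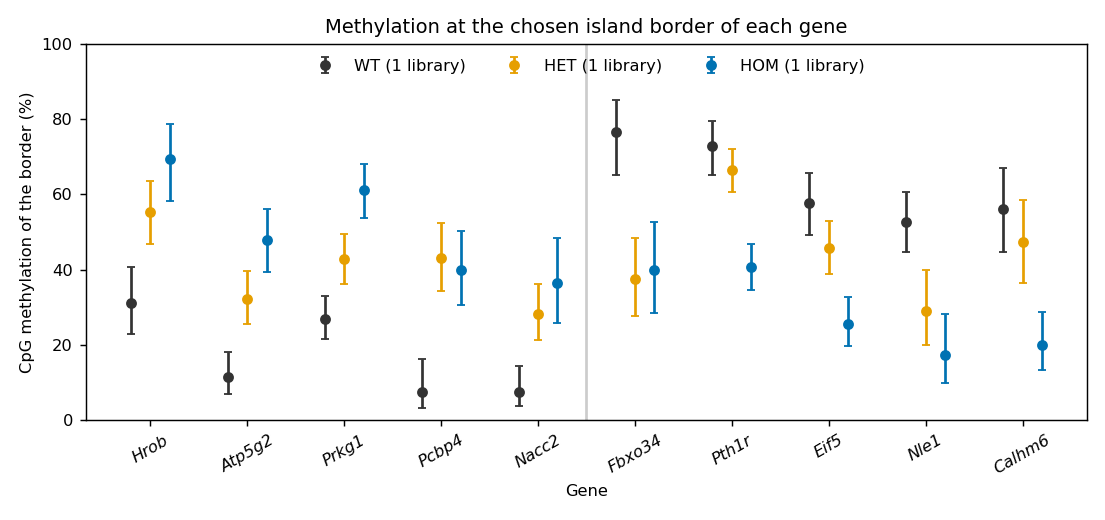
Methylation (%, vertical axis) of the chosen island border of each gene (horizontal axis) in the WT, HET and HOM libraries, with 95% Wilson intervals for counting error. The 5 genes on the left were chosen for a gain in HOM and the 5 on the right for a loss. In these pooled levels HET lies between WT and HOM at 8 of 10 genes, and outside them at Pcbp4 and Fbxo34.

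Among the genes chosen for a loss, Fbxo34, an F-box protein that brings substrates to a ubiquitin ligase, had its border at 14:47471966-47472465, from 67 bp upstream of the gene start outward. It was at 76.5% over 68 reads in WT, 37.5% over 80 in HET and 40.0% over 60 in HOM. Both mutant libraries were low in this pooled level (HOM minus WT -36.5 points, -50.7 to -19.5), while within CpGs HET minus WT was -6.26 points and HOM minus WT -3.62. Calhm6, a member of the CALHM family of channel proteins, had its border inside the gene at 10:34126960-34127459. It was at 56.2% over 73 reads in WT, 47.3% over 74 in HET and 19.8% over 101 in HOM, a HOM minus WT difference of -36.4 points (-49.0 to -22.0).

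Nle1 acts in assembly of the large ribosomal subunit, and its border, 11:82908510-82909009, starts 63 bp upstream of the gene start. The border was at 52.8% over 144 reads in WT, 28.9% over 76 in HET and 17.2% over 64 in HOM, a HOM minus WT difference of -35.6 points (-46.4 to -21.9). Pth1r, the receptor of parathyroid hormone and its related peptide, had its border inside the gene at 9:110744071-110744570. It was at 72.9% over 144 reads in WT, 66.5% over 263 in HET and 40.6% over 249 in HOM, so HET stood near WT and HOM was low (HOM minus WT -32.4 points, -41.2 to -22.4). Eif5, which stimulates GTP hydrolysis by eIF2 when the ribosome meets a start codon, had its border inside the gene at 12:111539184-111539683. It was at 57.7% over 137 reads in WT, 45.7% over 188 in HET and 25.6% over 164 in HOM (HOM minus WT -32.1 points, -42.1 to -21.0).

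A window was called different at 10 points or more with an adjusted p under 0.05, from Fisher's exact test, adjusted by the Benjamini-Hochberg method over all windows of its kind. This test compares 2 libraries, not 2 genotypes. Among all outer borders 1.39% were called for HOM against WT, 0.794% for HET against WT and 1.38% for HOM against HET. At the chosen borders the calls numbered 10, 5 and 4, and nothing is read from them because each comparison shares a library with the choice. Among 337 called borders with at least 60 reads in WT and HOM, the genes ranked between 2 and 12 for a gain and between 2 and 11 for a loss. They are not the top of that list: 7 other borders ranked above the last gain and 6 above the last loss. The first gain was a border at 38.7 points that lies 22273 bp from the nearest protein-coding gene end, that of Rps6ka1. The first loss was a border at -37.4 points, 25 bp from an end of Ube2cbp. The last gain inside was that of Nacc2, and the next border outside, near Zscan10, differed by 27.9 points. On the other side Eif5 was the last inside, and the next outside, near Zdhhc20, differed by -30.9 points.

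The CpGs of a border were then read 1 at a time, counting those with at least 5 reads in every library. At Prkg1 HOM was above WT at 13 of 15 CpGs and below at 1, with a median difference of 30 points. The CpG 189 bp from the island edge went from 30.8% of 13 WT reads to 72.7% of 11 HET reads and 100% of 9 HOM reads. At 438 bp the levels were 15.0% of 20 reads, 35.3% of 17 and 71.4% of 14. The gain at Prkg1 was thus spread over most of the border, and it was seen in both parts: the nearer 250 bp went from 29.8% in WT to 48.6% in HOM and the farther 250 bp from 26.2% to 64.4%.

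Atp5g2 had HOM above WT at 8 of 9 CpGs and below at none, and HET above WT at 8 of 9. Its CpG 375 bp from the edge was at 28.6% of 7 WT reads, 66.7% of 9 HET reads and 81.8% of 11 HOM reads. The CpG nearest the island, 22 bp out, was at 0% in all 3 libraries, over 21, 24 and 15 reads. At 35 bp the levels were 0%, 4% and 33.3%, where only HOM stood apart. Hrob had HOM above WT at 6 of 8 CpGs, Pcbp4 at 5 of 6 and Nacc2 at 5 of 7, with none below.

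Read depth within the border differed between libraries at some of these genes. At Hrob 70.0% of the WT reads but 37.3% of the HOM reads fell in the nearer 250 bp, where methylation was lower in every library. Within the nearer 250 bp the Hrob levels were 12.9%, 21.5% and 32.1%, and within the farther 250 bp they were 73.3%, 88.1% and 91.5%. HOM remained the highest in both stretches, by less than the pooled difference of the whole border. At Nacc2 the farther 250 bp held 15.8% of the WT reads and 39.4% of the HOM reads, and was at 33.3% of 15 WT reads and 73.1% of 26 HOM reads.

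**Figure D2:**
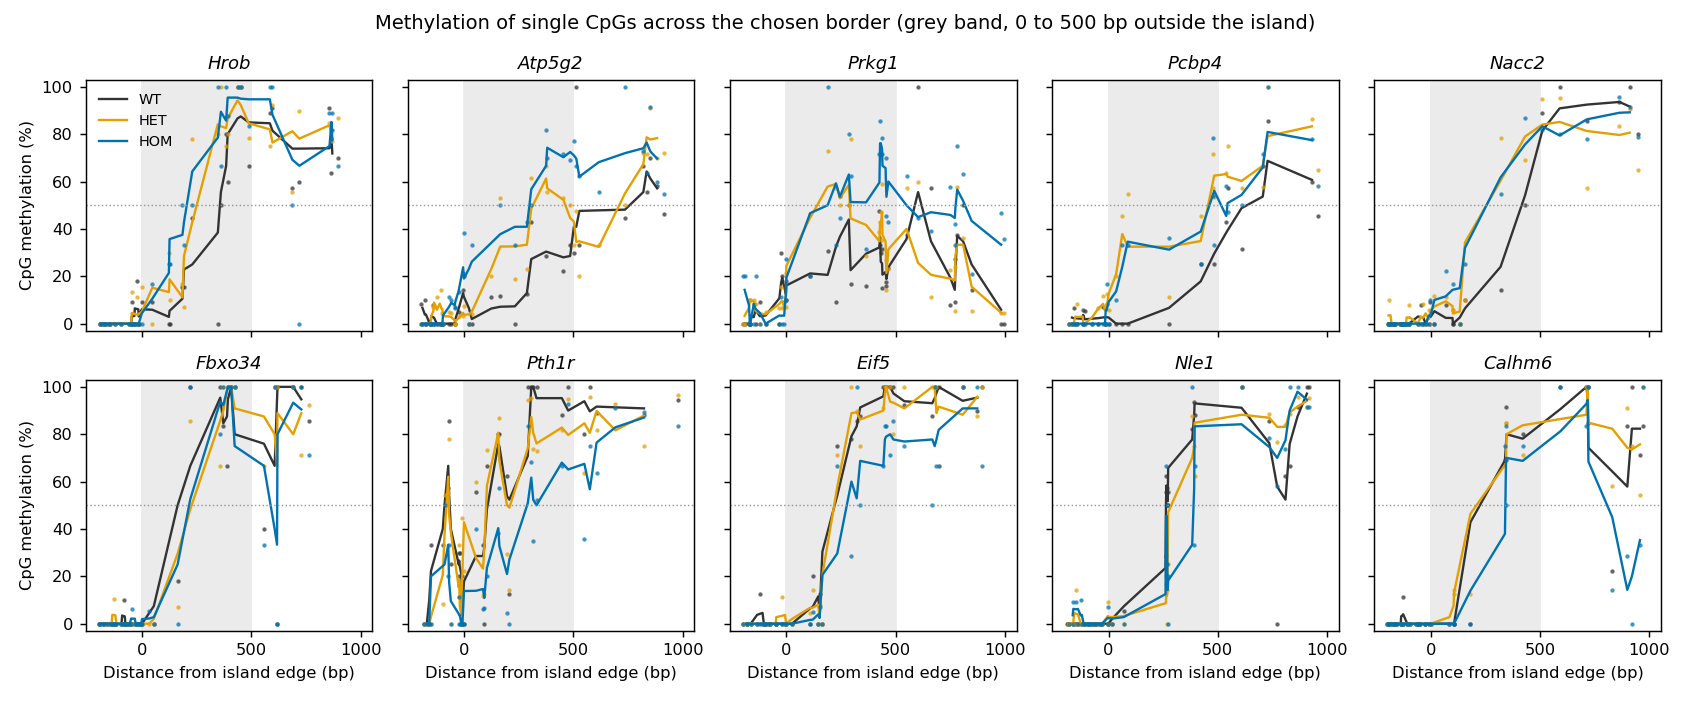
Methylation of single CpGs (dots, %) and its running level over 3 CpGs (lines, pooled over reads) against the distance from the island edge (bp) for the 3 libraries; the grey band is the chosen border and the dotted line marks 50%. At Atp5g2 and Prkg1 the HOM line runs above the WT line across the border, at Pth1r below it, and at Fbxo34 and Calhm6 the lines of the libraries lie close together over much of the band.

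At Pth1r the difference was found at nearly every CpG. HOM was below WT at 13 of 14 CpGs, with a median difference of -25.0 points, and HET was below WT at 9 of 14. The CpG 316 bp from the edge was at 100% of 13 WT reads, 73.9% of 23 HET reads and 35.0% of 20 HOM reads. The CpG at 196 bp was at 62.5% of 8 reads, 29.4% of 17 and 4.55% of 22. Both parts were lower in HOM: the nearer 250 bp was at 49.3%, 49.3% and 21.6%, and the farther 250 bp at 97.2%, 85.0% and 64.5%. In the nearer part HET stood with WT, and in the farther part it stood between the others.

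Eif5 had HOM below WT at 10 of 14 CpGs and above at none. Its nearer 250 bp was low in all libraries, at 14.3%, 9.43% and 6.96%, and its farther 250 bp was at 94.6% of 74 WT reads, 92.7% of 82 HET reads and 69.4% of 49 HOM reads. The loss of Eif5 in HOM was therefore found in the outer part of the border, where HET remained near WT. At Nle1 only 2 of 12 CpGs had 5 reads in every library. Its farther 250 bp was at 68.2% of 110 WT reads, 43.1% of 51 HET reads and 34.4% of 32 HOM reads, and held 76.4% of the WT reads but 50% of the HOM reads.

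Calhm6 and Fbxo34 showed little difference from CpG to CpG. At Calhm6 the nearer 250 bp was at 0%, 8.82% and 0% over 20 WT, 34 HET and 73 HOM reads. The farther 250 bp was at 77.4%, 80% and 71.4% over 53, 40 and 28 reads. The libraries thus had like levels at like places, and the pooled level of HOM was low while 72.3% of its reads, against 27.4% in WT, lay in the unmethylated stretch next to the island. At Fbxo34 the nearer 250 bp was at 50% of 28 WT reads, 21.0% of 62 HET reads and 16.7% of 42 HOM reads, and the farther 250 bp at 95%, 94.4% and 94.4%. Within that nearer stretch the CpG at 221 bp was at 100% of 12 WT reads and 100% of 6 HOM reads, and the CpG at 34 bp had 0 WT reads but 18 HOM reads.

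**Figure D3:**
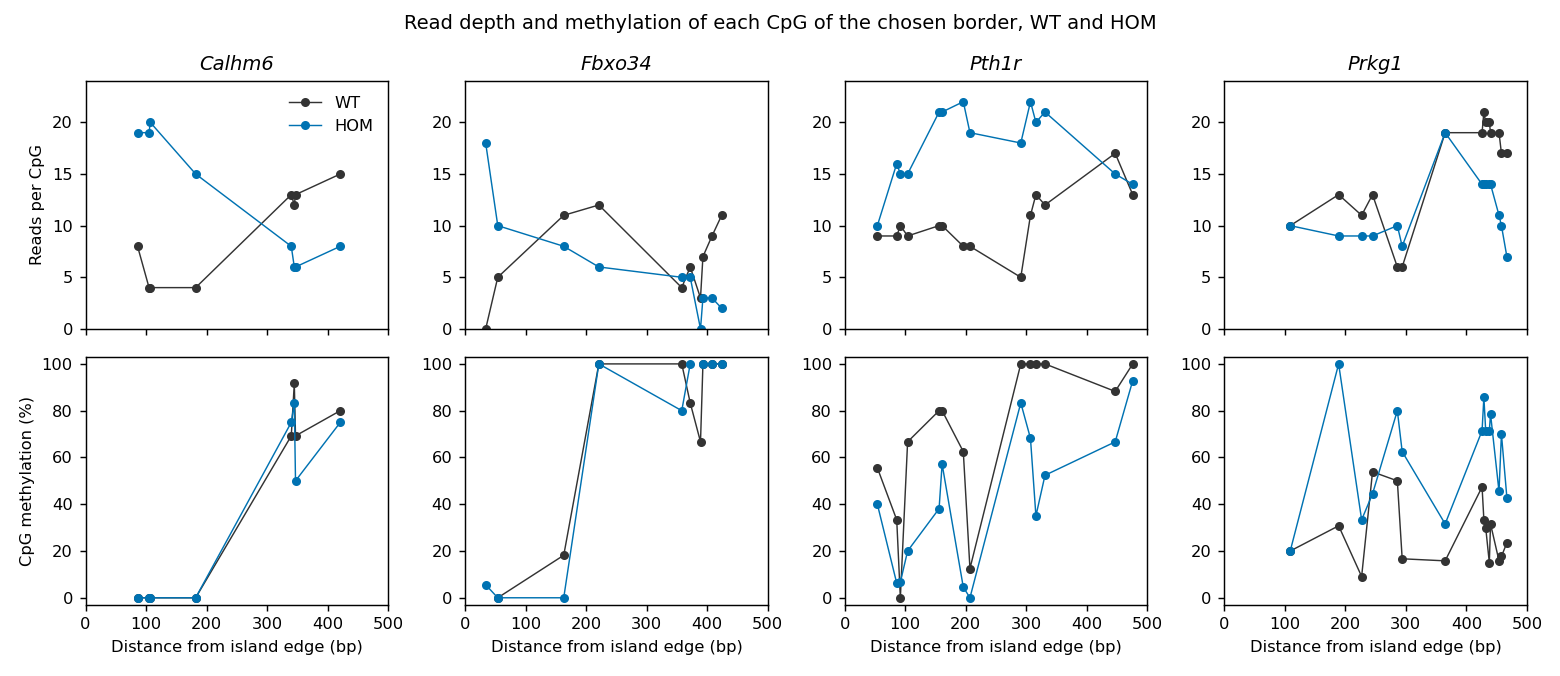
Reads (upper panels, reads per CpG) and methylation (lower panels, %) of each CpG of the chosen border against its distance from the island edge (bp), for WT and HOM at 4 genes. At Calhm6 and Fbxo34 the read counts of the 2 libraries cross while the levels lie close, and at Pth1r and Prkg1 the levels are apart at most CpGs.

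A difference that gives each CpG the same weight in both libraries (the Mantel-Haenszel average of the differences within CpGs, used after the data had been seen) takes out such uneven depth. By this measure HOM minus WT was 34.3 points at Prkg1 (standard error 4.40), 29.8 at Atp5g2 (4.98), 20.6 at Hrob (6.04), 19.1 at Pcbp4 (6.66) and 17.1 at Nacc2 (5.56). It was -30.4 at Pth1r (3.74), -15.1 at Nle1 (5.33) and -12.5 at Eif5 (3.40). Prkg1 and Pth1r thus had nearly their pooled difference, Atp5g2 a somewhat smaller one, and Hrob, Pcbp4, Nacc2, Nle1 and Eif5 a clearly smaller one. These values come from the reads that chose the genes and are a description too. At Fbxo34 the difference was -3.62 points with an interval of -10.4 to 3.10, and at Calhm6 it was -3.26 points with an interval of -13.9 to 7.40, so the loss at these 2 genes was not detectable within CpGs at this depth. Over all 363 outer borders called for HOM against WT, 21.5% were below 10 points by this measure.

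**Figure D4:**
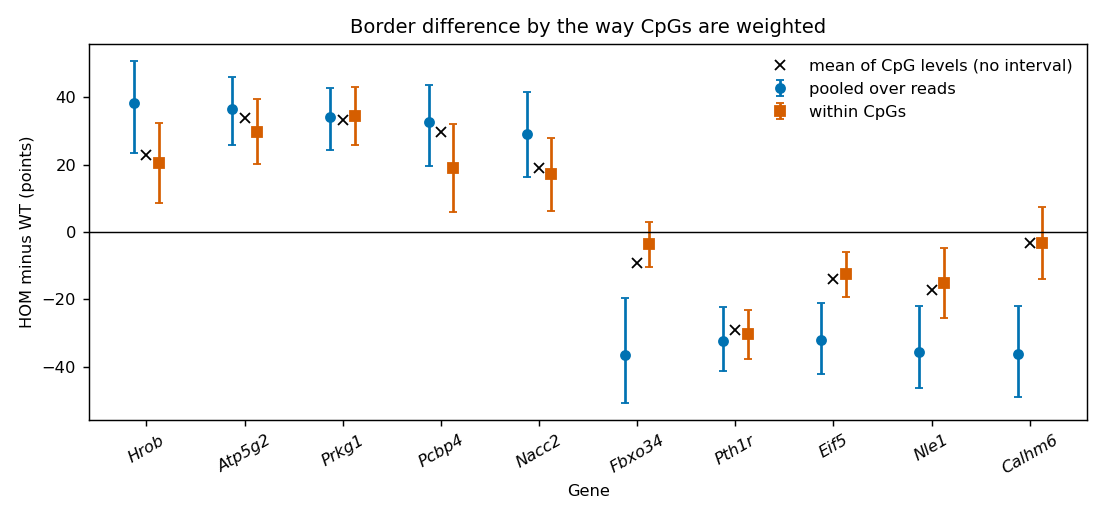
HOM minus WT at the chosen border (percentage points) of each gene, pooled over reads (circles, 95% Newcombe interval), as the mean of the CpG levels (crosses) and within CpGs (squares, 95% interval). The circle and the square nearly coincide at Prkg1 and Pth1r and stand far apart at Fbxo34 and Calhm6.

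For HET against WT the difference within CpGs was largest at Pcbp4, at 30.3 points (standard error 6.07), followed by 16.7 at Atp5g2 (4.11) and 15.3 at Prkg1 (4.31). At Nle1 it was -19.2 (4.97) and at Pth1r -7.68 (3.49). At Eif5 it was -1.59 (-6.90 to 3.73), at Fbxo34 -6.26 (-14.5 to 1.95) and at Calhm6 2.98 (-8.11 to 14.1), so that within CpGs a difference of HET from WT was not detectable at these 3 genes. By this measure HET lay between WT and HOM at 6 of 10 genes, not at Pcbp4, Fbxo34, Nle1 or Calhm6. Some CpGs had 0 reads in a library: 11 of the 114 CpGs of the chosen borders lacked reads in at least 1 library, against 16.7% of all autosomal CpGs of the table. At Pcbp4 2 of 8 CpGs, 476 and 479 bp from the edge, had no WT reads while HOM had 53.8% of 13 and 78.6% of 14 reads methylated.

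The place of the border was also read as the distance from the island edge at which the running level over 3 CpGs first reached 50%. At the genes chosen for a gain this distance was shorter in HOM than in WT throughout: 307 against 820 bp at Atp5g2, 189 against 603 bp at Prkg1, 476 against 706 bp at Pcbp4, 230 against 361 bp at Hrob and 320 against 432 bp at Nacc2. In HET it was the same as in HOM at Prkg1, Pcbp4 and Nacc2, 375 bp at Atp5g2, and 347 bp, near WT, at Hrob. At the genes chosen for a loss it was longer in HOM: 291 against 156 bp at Pth1r, 392 against 263 bp at Nle1, 298 against 233 bp at Eif5 and 221 against 163 bp at Fbxo34. HET did not follow HOM at 3 of these: it was at 104 bp at Pth1r, shorter than WT, at 233 bp as in WT at Eif5, and at 358 bp, beyond HOM, at Fbxo34, while at Nle1 it was at 383 bp. At Calhm6 the distances were 340 bp in WT and 345 bp in both mutant libraries, a step of 1 CpG. These distances come from the reads that chose the genes and add no independent evidence. The running level pools the reads of 3 CpGs, so uneven depth can move the distance too. At Fbxo34 the WT and HOM distances are 1 CpG apart, and the CpG at 221 bp was at 100% of 12 WT reads and 100% of 6 HOM reads. At Nle1 the HOM distance rests on CpGs with 1, 3 and 3 reads. At Pcbp4 the HET and HOM distance rests in part on the CpGs at 476 and 479 bp, which had 0 WT reads. The WT distance at Hrob rests on CpGs with 2, 2 and 5 reads. That of Prkg1 rests on CpGs with 8, 3 and 7 reads, and the level did not stay high beyond it. At 751 bp Prkg1 was at 7.69% of 13 WT reads and 57.9% of 19 HOM reads, and at 1285 bp at 0% in all 3 libraries. The Prkg1 distances thus mark a partly methylated stretch that ended within the shore.

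The 10 genes held 122 other windows with enough reads, none sharing a CpG with a chosen border, of which 20 adjoin one. Of these, 6 were called for HOM against WT, 1 higher and 5 lower, and by kind they were 1 of 27 outer borders (1.39% of all outer borders were called), 4 of 36 shores (7.87% of all shores), 1 of 36 inner borders (0.489% of all), 0 of 14 cores (0.151%) and 0 of 9 gene bodies (2.45%). The inner border is the 200 bp inside the island edge and the core is the rest of the island. For HET against WT 1 shore was called, where 2.81% of all shores were, and no outer border, inner border (0.293% of all), core (0.0972%) or gene body (0.862%). For HOM against HET 1 outer border and 4 shores were called, where 6.83% of all shores were, and no inner border (0.319% of all), core (0.108%) or gene body (1.60%). Of the shores called for HOM against HET, all 4 were among the 10 beside a chosen border, with 0 of 10 on the other side of the same islands and 0 of 16 at other islands. For HOM against WT these were 2 of 10, 0 of 10 and 2 of 16. Windows beside the chosen borders made up 3 of the 6 calls for HOM against WT and 4 of the 5 for HOM against HET. With each read counted about once instead of once per CpG, 0 of the 122 windows were called in any of the 3 comparisons, and 0 outer borders of the whole genome were called for HOM against WT.

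The outer border called was the opposite, left border of the Nacc2 island, at 2:26121750-26122249. It was at 77.3% over 119 reads in WT, 68.9% over 264 in HET and 51.9% over 289 in HOM. HOM was below WT there by -25.4 points (-34.2 to -15.3; Fisher's exact test, Benjamini-Hochberg adjusted p = 7.56e-04), and below HET by -17.0 points (adjusted p = 0.00879 by the same test). The 2 borders of this 1 island therefore differed in opposite directions, with methylation higher in HOM on the upstream side and lower on the side within the gene. The difference within CpGs at the left border was -22.2 points. With only CpGs of at least 5 reads in every library, HOM against HET was no longer called there (-15.4 points, adjusted p = 0.0880 by Fisher's exact test).

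At Prkg1 the shore beside the chosen border went with it: it was at 10.9% over 348 reads in WT, 11.2% over 493 in HET and 22.1% over 492 in HOM, a HOM minus WT difference of 11.2 points (6.17 to 16.0; Fisher's exact test, adjusted p = 0.00126). HET was near WT there, and HOM was above HET by 11.0 points (adjusted p = 3.78e-04 by Fisher's exact test). Within CpGs the HOM minus WT difference of this shore was 7.90 points, under the 10 points asked for a call, and with CpGs weighted equally it was 7.73 points, and 9.83 against HET. Another Prkg1 island had a shore at 91.9%, 82.1% and 72.3%, lower in HOM by -19.6 points (Fisher's exact test, adjusted p = 0.0137). Prkg1 thus held called windows of both directions.

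At Pth1r the inner border beside the chosen border fell as well, from 24.3% of 111 WT reads and 19.6% of 153 HET reads to 6.06% of 99 HOM reads (-18.3 points, -27.6 to -8.66; Fisher's exact test, adjusted p = 0.0428). At Calhm6 the shore beyond the chosen border was at 89.7% over 136 reads in WT, 89.2% over 158 in HET and 72.3% over 94 in HOM. HOM was lower than WT there by -17.4 points (-28.0 to -7.19; Fisher's exact test, adjusted p = 0.0213), and the difference within CpGs was -13.5 points. The call rests on few reads: 1 CpG, 921 bp from the edge, was at 100% of 4 WT reads, 75% of 12 HET reads and 0% of 7 HOM reads, the pattern looked for as a sign of a base change. Without it the difference was -11.2 points (adjusted p = 0.163 by Fisher's exact test) and the shore was no longer called, for HOM against HET either (-12.2 points, adjusted p = 0.0918). With only CpGs of at least 5 reads in every library neither was called (adjusted p = 0.121 and 0.127 by the same test). A shore of another Pcbp4 island was at 23.2%, 12.8% and 12.5%, lower in HOM by -10.7 points (adjusted p = 0.00333) and in HET by -10.4 points (adjusted p = 0.00649, both by Fisher's exact test). With the open sea difference taken off these were -7.31 and -9.73 points, and with CpGs weighted equally -8.14 and -8.70, all under the 10 points asked for a call. The difference at this shore was opposite in sign to that of the chosen Pcbp4 border. For HOM against HET the shores beside the chosen borders of Atp5g2, by 11.8 points, and Nle1, by -13.1 points, were called too.

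**Figure D5:**
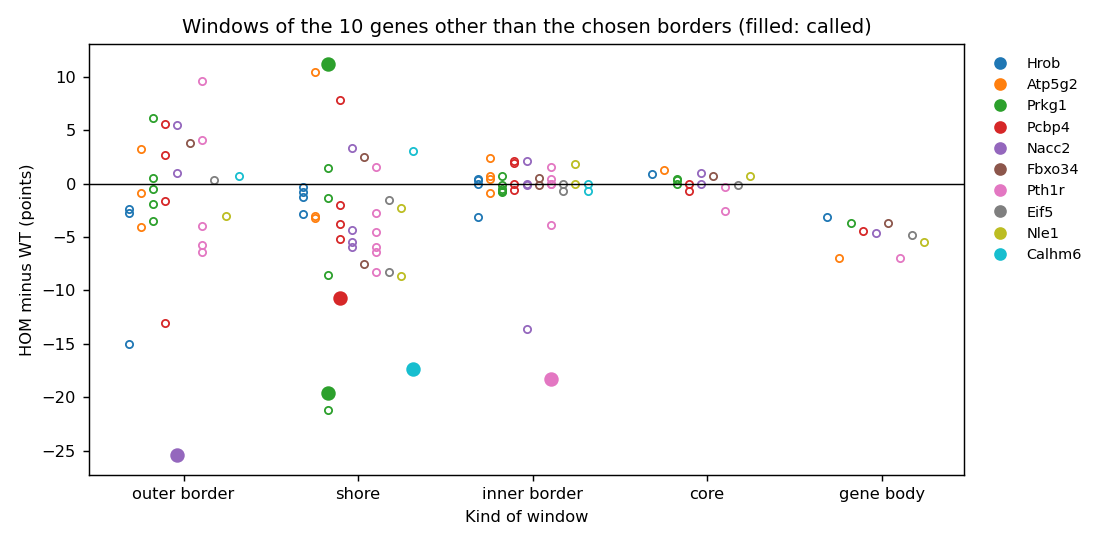
HOM minus WT (percentage points) of the 122 windows of the 10 genes other than the chosen borders, by kind of window and coloured by gene. Filled points were called. The called points are 1 outer border (Nacc2), 4 shores and 1 inner border (Pth1r), and the 9 gene bodies all lie below 0.

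At the other 9 genes the border on the opposite side of the same island was not called. It was at 1.49%, 0.969% and 0.982% at Prkg1 over 469, 516 and 509 reads, and at 3.30%, 8.27% and 4% at Calhm6. The largest uncalled difference was that of Pcbp4, at 57.3%, 46.2% and 44.3%, a HOM minus WT difference of -13.0 points whose interval, -27.5 to 2.32, includes 0. The choice took the outer border with the largest HOM minus WT difference near each gene. The opposite borders were candidates too and had to differ less, so nothing is read from their lack of calls. The measured cores of the same islands, 8 in number, were between 0% and 2.07% in every library. Gene bodies, read over CpGs more than 2000 bp from an island, were lower in HOM at all 9 genes measured, by -3.11 points at Hrob to -6.98 at Atp5g2. Their median difference was -4.59 points against -3.08 for all gene bodies. None of these gene bodies was called, because every difference was smaller than the size asked for a call, whatever its p-value.

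In their islands the genes did not stand far from the rest. The median island length was 671.5 bp against 605 bp for all tested borders, and the median border held 11.5 CpGs against 11. The WT level of the chosen borders had a median of 41.9% against 9.35%, and these levels took part in the choice. The median HOM minus WT difference of all outer borders was -0.51 points. Chosen borders had fewer reads than all tested borders, with medians of 112 against 126 in WT and of 95.5 against 143 in HOM. Borders at 20 to 80% in WT had medians of 101 in WT and 116 in HOM. Against those, the chosen borders had more reads in WT and fewer in HOM.

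Paralogues and partners of the genes gave 50 outer borders at 22 of 30 genes, and 0 were called for HOM against WT or HET against WT by Fisher's exact test, where 1.39% and 0.794% of all outer borders were. Of these, 35 were lower in HOM, and the median difference was -0.56 points against -0.51 for all borders. Mcm8 and Mcm9, the helicase subunits that work with Hrob, had differences between -8.95 and 1.62 points. Of the other subunit c genes, Atp5g1 had its right border at 21.0%, 19.9% and 33.1%, called for HOM against HET by 13.2 points but not against WT (12.1 points, 4.73 to 19.2; adjusted p = 0.0750 by Fisher's exact test), and Atp5g3 differed by -10.5 points at its right border (-18.8 to -3.04; adjusted p = 0.195 by the same test). In cGMP signalling, Prkg2 differed by 7.96 and 3.66 points and Gucy1b1, a guanylate cyclase subunit, by -14.7 points at 1 border. The KH domain genes Pcbp3 and Hnrnpk differed by 10.7 and -12.6 points and by 0 and -11.3 points. Pcbp1 differed by -2.63 and Pcbp2 by 2.45 points, and none of these borders was called. Among ribosome assembly genes, which share their role with Nle1, the right border of Rrp12 was lower in HOM by -8.98 points (adjusted p = 0.0421 by Fisher's exact test), under the 10 points asked for a call. The borders of Pthlh, the ligand gene of Pth1r, differed by -0.31 and -3.54 points. Those of Eif2s1 and Eif2s2, which encode subunits of the eIF2 that Eif5 acts on, differed by -2.19 to 0 points. No CALHM paralogue had a border among those tested.

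The borders most like Hrob elsewhere, by the summed absolute difference of the 3 library levels, were those near Fam172a (35.4%, 58.1% and 72.1%, a sum of 9.94 points), Cnot10 (14.2 points) and Plagl1 (15.4 points). For Fbxo34 they were those near Krt87 (68.9%, 35.1% and 36.0%, a sum of 14.03 points), Plscr4 (16.0 points) and Kcnrg (16.6 points). These names are those of the nearest gene end, which for Kcnrg is 36555 bp away. The likeness is of pooled levels over 3 libraries only, and it was not compared within CpGs, where the loss of Fbxo34 itself was not detectable. RefSeq genes within 5 kb of the spans were Asb16 at Hrob, Gm4544 and Mir688 at Atp5g2, Abhd14a, Abhd14b and Gpr62 at Pcbp4, Gm35166 at Fbxo34, Gm35775 at Pth1r, Snora28 at Eif5, and Fndc8 and Unc45b at Nle1. At Prkg1 they were 8430431K14Rik, Cstf2t, Gm19023, Gm41834, Gm50266 and Gm6642, and there were none at Nacc2 or Calhm6. No chosen border overlapped any of these neighbours. Exon, intron and UTR were not assigned, because exon positions were not used here.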

How the data were processed

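Whole-genome bisulfite sequencing of mouse B cells was analysed from 1 deposited table of read counts per CpG (methylated and covering reads; raw counts per the file headers), with 1 set per genotype; blood and single replicates were not analysed here, and 0 columns of per-sample values were left unused. Bismark with Bowtie2, Trim Galore (0.2.8), BWA (0.7.13), MethylDackel and Picard (1.91 and 2.3.0), and the builds mm10 and hg19, are named in the submitters' processing notes, with no role given. CpG positions matched GRCm38. Reads per library ranged from 200824258 to 282430649 CpG reads; intervals (Wilson, Newcombe, 95%) cover counting error only, since reads of one molecule are not told apart.

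Islands were found from CpG positions (17 points per CpG, minus 1 per other base; over 200 bp, 6 or more CpGs per 100 bp, mean core level of the libraries under 20%). Windows needed 3 CpGs and 30 CpG reads in every library. The 2-sided Fisher's exact test (Benjamini-Hochberg adjusted within each kind of window) replaced edgeR, which had been planned for the case of several sets per genotype. The border taken for each gene was the outer border with the largest HOM minus WT difference within 5 kb of its span. All 10 genes, their neighbours within 5 kb, and the 3 borders most like those of the genes with the highest and lowest HOM minus WT difference were named. Paralogues and partners of the 10 genes were counted as a set of 30 genes, and only some of them were named. The genes and all lists were chosen with earlier results of these data known. Alternatives changed border width, island score, CpG depth, weighting, open sea level, read linkage and call size. Scripts ran in Python (3.11.15) with numpy (2.4.6), pandas (2.3.3) and numba (0.67.0), and were tested on simulated data.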

Additional observations from a re-analysis of the deposited data

How the results depend on the processing

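No result has a replicate, and the p-values compare libraries. The chosen borders kept their direction and 10 points at 8 to 10 genes under every alternative but 1: with an outer border of 200 bp, where 4 genes gave a value, 3 did, and Eif5 was at -3.57 points. The count was 8 with an island score of 14 (Prkg1 7.07, Nacc2 8.03 points), 8 with CpGs weighted equally or compared within CpGs (not Fbxo34 and Calhm6), 8 with at least 5 reads per CpG (no value for Fbxo34 and Nle1) and 9 with a border of 1000 bp, where Nle1 reversed to 0.15 points; the cause was not tested. Pth1r varied least, from -32.4 to -28.7 points.

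Of the other windows, 6 were called for HOM against WT, 1 for HET against WT and 5 for HOM against HET. With each read counted about once, which leaves fewer counts per window, these were 0, 0 and 0, and at 20 points 1, 0 and 0. For HET against WT they were 2 with a border of 1000 bp and 0 with an island score of 14, equal weights or the open sea difference taken off; for HOM against HET they were 3 with a border of 200 bp. The cause of these changes was not tested. For HOM against WT the Calhm6 shore lost its call without variant-like CpGs or with at least 5 reads per CpG (5 left each), and the Pcbp4 shore with the open sea difference taken off (5 left). With CpGs weighted equally the Prkg1 shore beside the chosen border (7.73 points) and the Pcbp4 shore (-8.14 points) both lost their calls. Compared within CpGs that Prkg1 shore (7.90 points) lost its call too. The chosen borders had 60 to 263 CpG reads per library. No paired analysis was possible because each genotype has 1 set of counts that carries no replicate number.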
